A study of Mus musculus with 3 samples.

Results

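The genes described here are 10 of the 32285 genes counted in each library: the MHC class I heavy chains H2-K1 and H2-D1, their light chain B2m, the peptide transporter subunits Tap1 and Tap2, the loading factor Tapbp, the immunoproteasome subunits Psmb8, Psmb9 and Psmb10, and the regulator Nlrc5. They were taken by gene symbol, and each symbol matched 1 row of the count matrices. Single cells were dissociated from mouse hypothalamus, and the comparison asks how heat exposure and the period after it changed hypothalamic transcription. All animals were male mice aged 8 weeks, in 3 groups of 1 library each: PF controls fed to match the intake of heated animals, HS animals taken in the heat-exposed state, and QS animals taken once they had recovered from it. The labels state neither how many mice went into a library nor how long recovery lasted, and RT, a room-temperature condition, was not analysed here. HS and QS were each set against the same PF library, so the ratios HS/PF and QS/PF share their denominator.

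MHC class I molecules show peptides from a cell's own proteins to CD8 T cells and are also read by receptors of natural killer cells. Peptides are cut by the proteasome, whose Psmb8, Psmb9 and Psmb10 subunits replace the constitutive catalytic subunits and favour ends that class I can bind. They are then pumped into the endoplasmic reticulum by TAP, and tapasin (the product of Tapbp) holds the empty heavy chain and B2m against TAP until a peptide fits. Nlrc5 is a transactivator of these genes, and interferon gamma raises the whole set, in part through IRF1. In the resting brain, class I RNA is known to be plentiful in endothelial cells and microglia and scarce in neurons.

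The genes lie on 3 chromosomes of the mm10 (GRCm38) assembly, all protein-coding in GENCODE M21. Within the MHC region of chromosome 17, H2-K1 lies at chr17:33996017-34000347 (minus strand), Tapbp at chr17:33915899-33929292 (plus), Psmb9 at chr17:34181987-34187764 (minus), Tap1 at chr17:34187553-34197225 (plus), Psmb8 at chr17:34197721-34201454 (plus), Tap2 at chr17:34203527-34216321 (plus) and H2-D1 at chr17:35262730-35267499 (plus). B2m lies apart at chr2:122147686-122153083 (plus), and Psmb10 (chr8:105935735-105938444, minus) and Nlrc5 (chr8:94434356-94527272, plus) share chromosome 8. The annotated Psmb9 and Tap1 genes overlap head to head on opposite strands. H2-K1 and H2-D1 resemble each other and the other class I heavy chains, so the division of reads among them is uncertain.

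RefSeq promoter windows (GRCm38.p6), taken here as the 250 bases before a transcript's start, were found for 8 of the 10 genes, and Tap2 and Nlrc5 are named only. The windows of B2m and H2-K1, a light and a heavy chain, are shown whole because they lie outside annotated exons, apart from the last base of that of B2m. Both are written 5′ to 3′ on the gene's own strand, B2m from chr2:122147437-122147686 (plus) and H2-K1 from chr17:34000348-34000597 (minus), with motif matches on either strand in capitals.
B2m: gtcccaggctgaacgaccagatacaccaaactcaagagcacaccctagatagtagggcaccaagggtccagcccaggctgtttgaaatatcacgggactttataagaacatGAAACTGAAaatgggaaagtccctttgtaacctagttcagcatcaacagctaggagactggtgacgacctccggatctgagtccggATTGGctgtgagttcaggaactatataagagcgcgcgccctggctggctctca
H2-K1: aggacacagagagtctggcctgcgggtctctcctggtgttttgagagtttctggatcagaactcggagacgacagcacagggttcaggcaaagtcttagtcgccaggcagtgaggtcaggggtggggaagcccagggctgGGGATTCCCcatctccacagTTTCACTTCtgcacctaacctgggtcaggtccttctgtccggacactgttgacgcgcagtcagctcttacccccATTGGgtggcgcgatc

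The capitals in B2m are GAAACTGAA, a match to GAAANNGAA (the core of an interferon-stimulated response element) 139 bases before the start, and ATTGG, the CCAAT box on the other strand, 53 bases before it. GAAANNGAA was present in the windows of 7.13% of all 32851 promoters and of 1 of the 8 genes, B2m. CCAAT was present in 33.8% of promoters and in 6 of the 8 genes (B2m, H2-D1, H2-K1, Psmb9, Tap1 and Tapbp). The match in Tap1 and that in Psmb9 are the same site read from opposite strands, since their windows overlap. All 250 bases of the windows of H2-D1, Psmb9, Tap1 and Tapbp are exonic in GENCODE. TGACGNNA, the core of an X2 box, was present in 5.66% of promoters and matched Tap1 and Psmb9.

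The heavy chains shared 2 further matches, to motifs that were added after these sequences had been read. GGGATTCCC, a kappaB core, was present in 0.301% of promoters, and GAANNGAAA, which holds the repeats of the interferon-stimulated response element in the other order, in 6.31%. GAANNGAAA and GAAANNGAA can overlap each other in sequence. The next lines show 30 bases around the kappaB match in H2-K1 (chr17:34000439-34000468, minus) and H2-D1 (chr17:35262913-35262942, plus), with the match in capitals, because of the 8 genes these alone held it.
H2-K1: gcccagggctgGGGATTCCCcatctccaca
H2-D1: gcccagggctgGGGATTCCCcatctcctca
Over the aligned parts of their windows, H2-K1 and H2-D1 were identical at 169 of 204 bases (82.8%). The H2-D1 stretch falls within an annotated exon of H2-D1 in GENCODE.

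Tap1 and Psmb9 start back to back, and their windows overlap by 225 bases, so their X2 match is the same site read from opposite strands. It is shown on the strand of Tap1 (chr17:34187459-34187488, plus) with the match in capitals, 86 bases before the Tap1 start. The stretch is exonic in GENCODE, in Psmb9.
Tap1: ccagagacaggTGACGACAgagggtcctgc
The window of Psmb10 held none of the motifs searched. Each match is a description of the letters in the window, and binding was not measured.

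PF, HS and QS gave 12836, 12510 and 11720 barcodes and between 93295920 and 103891747 UMIs (unique molecular identifiers, 1 for each captured transcript), of which 11858, 11630 and 10782 cells were kept, with medians of 6143, 6298 and 6162 UMIs. Between 37 and 51 barcode sequences were shared by a pair of libraries. Clusters of cells were named from marker genes, with "-like" added, and the 9 classes that had 100 cells or more per library were compared: endothelial-like, microglia-like, astrocyte-like, oligodendrocyte-like, ependymal-like, vascular smooth muscle-like, pericyte-like, tanycyte-like and border-associated macrophage-like cells. In each of these classes the summed CPM of its own markers was above that in any other compared class. The names were given from the same markers, so this is no independent check of them. Between 581 and 722 cells of a library stayed unnamed.

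UMIs were summed over the cells of a class in a library and given as CPM, UMIs of a gene per 1000000 UMIs of that class. With 1 library a group, no difference can be set against the spread between mice, so no test was made. The 95% intervals (exact Poisson for a level, exact conditional binomial for a ratio, Clopper-Pearson for a share of cells) cover counting error only. A gene was called lower or higher in a class where the ratio reached 1.5 either way with at least 30 UMIs in the library with more, and a pair is 1 gene in 1 class. In a class sum, fewer cells with a transcript and less RNA per cell cannot be told apart.

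Endothelial-like cells had the highest mean of the 9 compared classes for every one of the 10 genes except Nlrc5. The mean of Nlrc5 was highest in border-associated macrophage-like cells (52.0 CPM, with a range that overlapped that of endothelial-like cells). For B2m and Tapbp the endothelial-like range over libraries overlapped that of microglia-like cells, so these 2 classes are not called different there. The heavy chains and B2m were high in 3 of the 9 classes (endothelial-like, microglia-like and border-associated macrophage-like) and low in the glial and mural classes. H2-K1, for example, averaged 2309 CPM over the 3 libraries in endothelial-like cells, 1461 CPM in microglia-like cells, 513 CPM in tanycyte-like cells and 232 CPM in astrocyte-like cells. The endothelial-like range over libraries, from 2020 to 2862 CPM, did not overlap that of microglia-like cells, from 1344 to 1609 CPM. Below tanycyte-like cells the neighbours in the order (ependymal-like, pericyte-like, oligodendrocyte-like, vascular smooth muscle-like and astrocyte-like cells) overlapped one another in H2-K1.

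Among the classes with too few cells for ratios, T or NK cell-like cells (71, 106 and 107 cells) overlapped endothelial-like cells in H2-K1, at 2476 CPM in PF, 2754 CPM in HS and 2400 CPM in QS. Neuron-like cells (47, 38 and 58 cells) held the least, with 225, 159 and 63.7 CPM. For Psmb8, the beta5i subunit of the immunoproteasome, monocyte or dendritic cell-like cells led with a mean of 436 CPM, and their range overlapped that of T or NK cell-like cells (mean 407 CPM), which overlapped that of endothelial-like cells (mean 281 CPM). Nlrc5 was highest in T or NK cell-like cells, at 106, 112 and 135 CPM, above the 53.7 to 88.7 CPM of monocyte or dendritic cell-like cells. Neuron-like cells had from 1.45 to 5.12 CPM of Nlrc5.

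**Figure D1:**
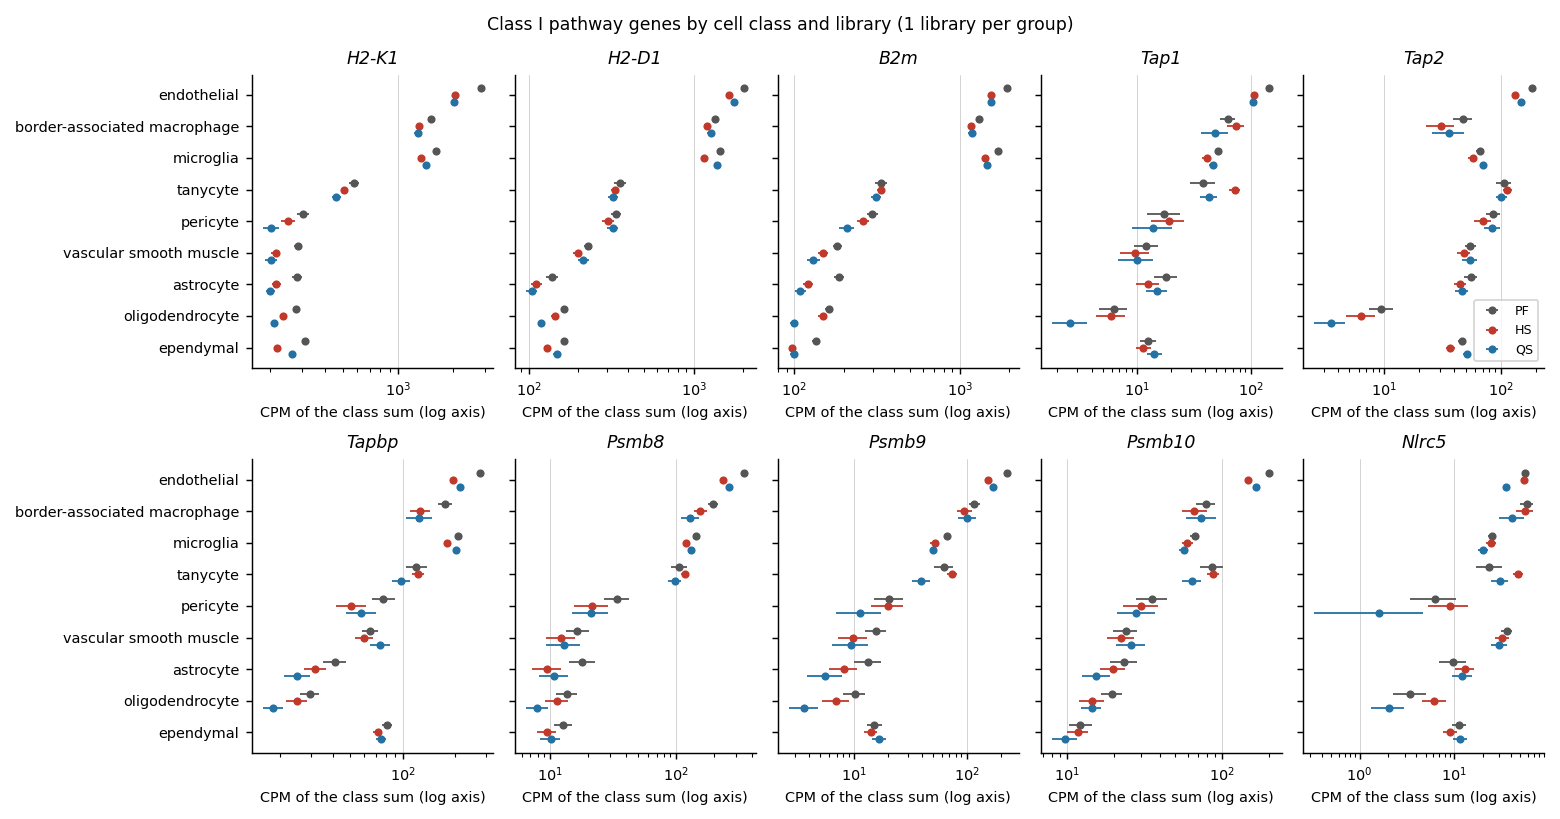
Level of each of the 10 genes (CPM of the class sum, log axis) in the 9 compared classes, with 1 point for each library (PF grey, HS red, QS blue) and exact Poisson 95% intervals. In endothelial-like cells the PF point is the highest of the 3 for every gene, and Nlrc5 in HS (54.9 CPM) lies close to PF (56.8 CPM).

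Across the 9 classes, the class I pathway genes were mostly lower in HS and in QS than in PF, by amounts that were usually below 1.5 times. In HS/PF, 77 of 89 measured pairs lay below 1 and the median log2 ratio was -0.26, beside -0.02 over all genes measured. In QS/PF, 78 of 88 pairs lay below 1 with a median of -0.33, beside -0.02 over all genes. In QS/HS the pairs were split, 49 of 89 below 1, with a median of -0.02 beside -0.01 over all genes.

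By the 1.5-fold rule, 7 of 89 pairs were lower in HS than in PF, where 3.17% of all gene-class pairs were, and 3 were higher, where 2.62% of all pairs were. The 7 were B2m, Psmb8 and Psmb9 in astrocyte-like cells, Tapbp and Psmb8 in pericyte-like cells, Psmb9 in vascular smooth muscle-like cells and Tap2 in border-associated macrophage-like cells. When cells were gated on marker UMIs one by one in place of clusters, the 7 compared classes gave 3 lower pairs of 69. In QS/PF, 17 of 88 pairs were lower (4.56% of all pairs) and 0 were higher (2.62%). In QS/HS, 10 of 89 were lower (4.67%) and 0 were higher (3.09%). At a smaller size, a log2 ratio of 0.32 either way, 34 pairs were lower and 4 higher in HS/PF (11.2% and 8.71% of all pairs), 45 lower and 1 higher in QS/PF (13.8% and 9%), and 21 lower and 3 higher in QS/HS (13.5% and 10.9%).

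**Figure D2:**
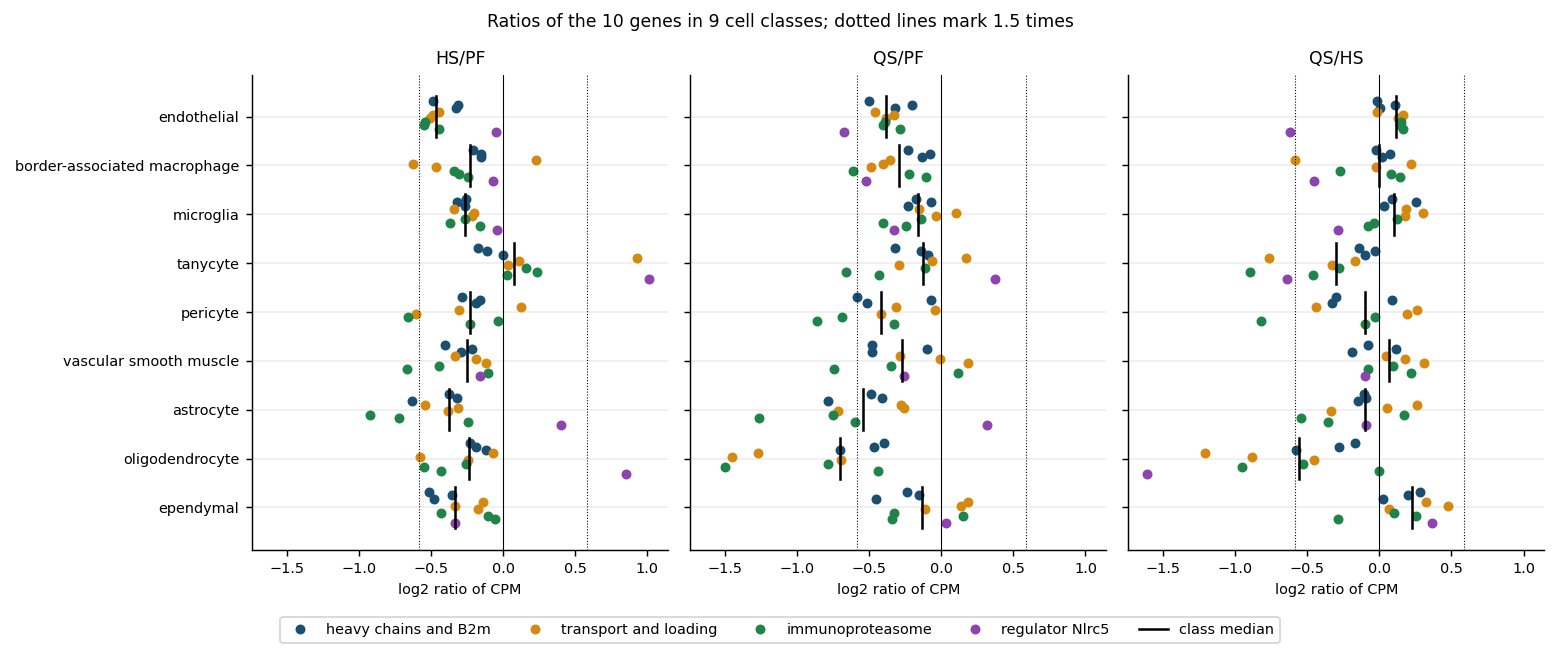
Log2 ratio of CPM for each measured gene and class in HS/PF, QS/PF and QS/HS, coloured by role, with the class median as a black bar and dotted lines at 1.5 times. Most points of HS/PF and QS/PF lie left of 0, tanycyte-like cells have a median of 0.07 in HS/PF, and oligodendrocyte-like cells have the lowest median of QS/PF, -0.70.

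In endothelial-like cells, the barrier-forming lining of brain vessels, all 10 genes were lower in HS than in PF, and 9 of them with ratios from 0.683 to 0.805. H2-K1 stood at 2862 CPM in PF, 2044 CPM in HS and 2020 CPM in QS, from 79127, 55790 and 42449 UMIs. Its ratio was 0.714 (95% interval 0.706 to 0.722) in HS/PF and 0.706 (0.697 to 0.714) in QS/PF, and 0.988 in QS/HS. HS and QS thus lay together and below PF. H2-D1 stood at 2025, 1631 and 1757 CPM, and its HS/PF ratio was 0.805 (0.795 to 0.815). B2m, which every class I heavy chain needs to fold, stood at 1936, 1547 and 1551 CPM, with an HS/PF ratio of 0.799 (0.789 to 0.809).

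The peptide transport and loading genes of endothelial-like cells were also highest in PF. Tap1 stood at 145 CPM in PF, 107 CPM in HS and 106 CPM in QS, with ratios of 0.734 (0.700 to 0.770) in HS/PF and 0.727 (0.690 to 0.766) in QS/PF. Tap2, the other subunit of the transporter, stood at 186, 133 and 149 CPM, and its HS/PF ratio was 0.713 (0.683 to 0.744). Tapbp stood at 278, 195 and 213 CPM, with an HS/PF ratio of 0.702 (0.678 to 0.727). In Tap2 and Tapbp, QS lay between HS and PF.

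The immunoproteasome subunits Psmb9 and Psmb8 had the lowest HS/PF ratios of the 10 in endothelial-like cells. Psmb8 stood at 344 CPM in PF, 237 CPM in HS and 263 CPM in QS, with ratios of 0.687 (0.666 to 0.709) in HS/PF, 0.764 (0.739 to 0.790) in QS/PF and 1.11 (1.07 to 1.15) in QS/HS. Psmb9 (beta1i) stood at 226, 154 and 171 CPM, with an HS/PF ratio of 0.683 (0.657 to 0.710). Psmb10 (beta2i) stood at 200.2, 147 and 165 CPM, with an HS/PF ratio of 0.735 (0.706 to 0.766). All 3 subunits were lowest in HS and intermediate in QS.

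Nlrc5 did not share this order. It stood at 56.8 CPM in PF, 54.9 CPM in HS and 35.7 CPM in QS in endothelial-like cells, with ratios of 0.966 (0.900 to 1.04) in HS/PF and 0.628 (0.575 to 0.686) in QS/PF. It was the 1 gene of the 10 to be called in this class, lower in QS against both PF and HS, and its HS/PF interval included 1.

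Of the endothelial-like clusters, 5 were large enough to compare (0, 1, 5, 6 and 14). Cluster 28, led by Plvap, a gene of fenestrated endothelium, was not, with 74, 94 and 5 cells. Cluster 0, led by Car4 and the transport genes Slc22a8 and Tfrc among others, had the lowest medians over the 10 genes, -0.59 in HS/PF and -0.54 in QS/PF. Within it H2-K1 stood at 2709, 1730 and 1730 CPM, a ratio of 0.639 in each comparison with PF, and Psmb8 at 310, 196 and 196 CPM. Cluster 14, led by the venous gene Ackr1 with Lcn2 and Vcam1, had a median of -0.39 in HS/PF and -0.09 in QS/PF. Its Psmb8 stood at 361 CPM in PF, 258 CPM in HS and 354 CPM in QS, so that QS lay near PF (ratio 0.980, 0.915 to 1.05). Its H2-K1 stood at 3247, 2413 and 2741 CPM, with a QS/PF ratio of 0.844 (0.824 to 0.865). Cluster 14 held 368, 343 and 152 cells. Unnamed cluster 33, which shared Ackr1, Lcn2 and Vcam1 among its leading genes, held 1, 3 and 61 cells. It scored 9 endothelial and 7 ependymal markers, at a median of 2832 UMIs beside 13159 UMIs in cluster 14. Whether its cells are of the same kind as those of cluster 14 was not tested. In the QS cells of cluster 33, H2-K1 was at 1228 CPM, and they are not part of the cluster 14 values.

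All 10 genes were below 1 in HS/PF in each of these 5 clusters and also in cluster 13, which was led by the arterial genes Gkn3, Bmx and Mgp. Cluster 13 scored 9 endothelial markers and stayed unnamed because its 10 leading genes held 1 neuronal marker, Stmn2, and no endothelial one. There H2-K1 stood at 3649 CPM in PF, 2753 CPM in HS and 2782 CPM in QS. These levels were above those of each of the 5 compared endothelial-like clusters in the same library. In cluster 28, too small to compare, H2-K1 stood at 3005, 3020 and 3355 CPM, the last from 5 cells. The median HS/PF log2 ratio was below 0 in all 19 clusters with at least 100 cells in every library, from -0.89 in unnamed cluster 18 (4 measured genes) to -0.02 in tanycyte-like cluster 15.

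**Figure D3:**
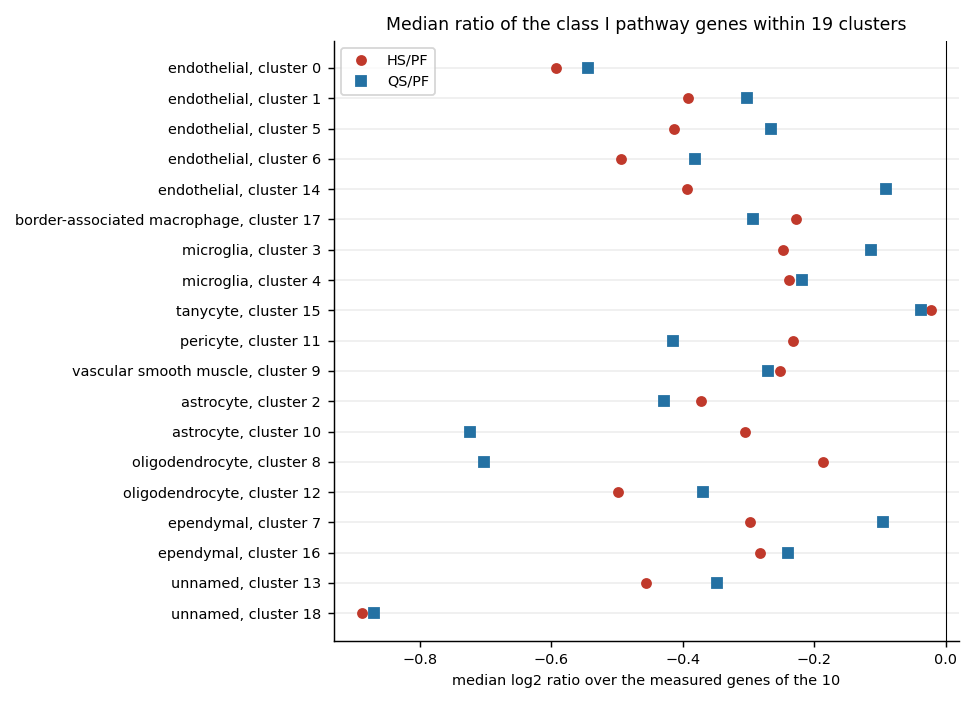
Median log2 ratio over the measured genes of the 10 within each of 19 clusters, HS/PF as red circles and QS/PF as blue squares. All medians lie below 0, and those of the endothelial-like clusters run from -0.59 to -0.39 in HS/PF and from -0.54 to -0.09 in QS/PF.

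The lower endothelial-like sums were also seen cell by cell. After each cell was thinned to 2000 UMIs, the 10 genes together gave a median of 16 UMIs in PF, 12 UMIs in HS and 11 UMIs in QS. The quartiles were 12 and 20 in PF, 8 and 16 in HS, and 7 and 16 in QS, so that both quartiles were lower in HS and QS than in PF. Between 470 and 665 endothelial-like cells a library were too shallow for this step and were left out. Psmb8 was detected in 44.2% of the thinned cells in PF (Clopper-Pearson 95% interval 42.4% to 45.9%), 34.7% in HS (33.0% to 36.5%) and 33.7% in QS (31.8% to 35.6%). Without thinning, and with shallow cells included, it was detected in 67.7%, 58.5% and 56.7%, at median depths of 5298, 5445 and 5040 UMIs. In neuron-like cells, at median depths of 11576, 13587.5 and 12434.5 UMIs, Psmb8 was detected in 2.13% of thinned cells in PF, in 0 of 38 cells in HS, where 3 counts allow a share with a UMI at this depth of up to 7.89%, and in 3.57% in QS.

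**Figure D4:**
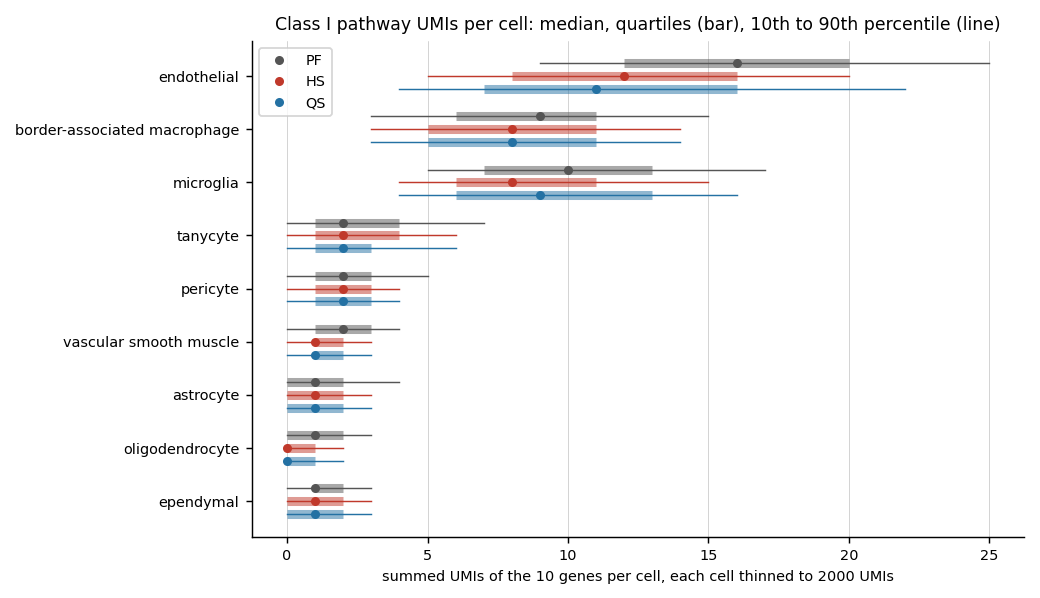
Summed UMIs of the 10 genes in each cell thinned to 2000 UMIs, by class and library (dot, median, thick bar, quartiles, thin line, 10th to 90th percentile). The endothelial-like medians are 16 (PF), 12 (HS) and 11 (QS), and those of microglia-like cells are 10, 8 and 9.

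Microglia-like cells, the resident macrophages of the brain tissue, had ratios closer to 1, and 7 of the 10 genes were higher in QS than in HS. H2-K1 stood at 1609 CPM in PF, 1344 CPM in HS and 1429 CPM in QS, with ratios of 0.835 (0.817 to 0.853) in HS/PF and 0.888 (0.871 to 0.905) in QS/PF. H2-D1 stood at 1446, 1157 and 1379 CPM, with a QS/PF ratio of 0.953 (0.934 to 0.972). All 10 genes were below 1 in HS/PF (median log2 -0.26) and 9 of 10 in QS/PF (median -0.16), and 0 were called. Psmb9, at 66.9, 52.0 and 50.6 CPM, Psmb10 and Nlrc5 were lowest in QS.

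Border-associated macrophage-like cells, which sit along vessels and meninges, had medians of -0.23 in HS/PF and -0.29 in QS/PF. Psmb8 stood at 197 CPM in PF, 156 CPM in HS and 129 CPM in QS, and its QS/PF ratio of 0.655 (0.541 to 0.789) passed the size rule. Tap2 stood at 47.1, 30.6 and 35.7 CPM, and its HS/PF ratio of 0.650 (0.462 to 0.903) passed it too. The summed class II genes of this class also differed between libraries, at 3059 CPM in PF, 2065 CPM in HS and 1887 CPM in QS.

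In astrocyte-like cells the genes were scarce, and B2m and the immunoproteasome subunits had the lowest ratios in QS/PF together with Tapbp. B2m stood at 187 CPM in PF, 121 CPM in HS and 109 CPM in QS, with ratios of 0.645 (0.582 to 0.713) in HS/PF and 0.581 (0.522 to 0.646) in QS/PF. Psmb8 stood at 18.1, 9.53 and 10.7 CPM from 76, 59 and 62 UMIs, with an HS/PF ratio of 0.527 (0.368 to 0.750). Psmb9 stood at 13.3, 8.07 and 5.55 CPM, with ratios of 0.606 (0.405 to 0.903) and 0.416 (0.261 to 0.654). The class medians were -0.38 in HS/PF and -0.54 in QS/PF. Summed markers of red blood cells and of class II antigen-presenting cells were also highest in PF in this class, and their part in the result was not tested. At least 1 UMI of the 10 genes was found in 72.1% of thinned astrocyte-like cells in PF (Clopper-Pearson 95% interval 69.0% to 75.1%), 63.1% in HS (60.4% to 65.8%) and 60.1% in QS (57.3% to 62.9%).

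Oligodendrocyte-like cells, the myelin-forming cells, differed most in QS. Tap1 stood at 6.23 CPM in PF, 5.94 CPM in HS and 2.58 CPM in QS, from 49, 47 and 33 UMIs, with ratios of 0.955 (0.626 to 1.45) in HS/PF and 0.414 (0.258 to 0.657) in QS/PF. Tap2 stood at 9.40, 6.32 and 3.44 CPM, with a QS/PF ratio of 0.366 (0.246 to 0.538). Psmb9 stood at 10.2, 6.96 and 3.60 CPM, with a QS/PF ratio of 0.354 (0.241 to 0.515). B2m, with more UMIs behind it, stood at 161, 148 and 98.9 CPM, with ratios of 0.919 (0.848 to 0.996) in HS/PF and 0.615 (0.568 to 0.665) in QS/PF. Of the 9 genes measured, 6 were called lower in QS/PF, beside 4.56% of all gene-class pairs over the compared classes together. All 10 were below 1 in QS/HS, where the median was -0.55. Tap1, Tap2 and Psmb9 rested on at most 80 UMIs a library. In QS they lay near or below 5% of their whole-library level, the measure of free RNA used below.

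Cluster 27, led by Nfasc and Mag among others, held 69, 62 and 95 cells, too few to compare, but its cells were deep (median 21213.5 UMIs) and rich in H2-K1, at 959, 804 and 667 CPM. Without it, H2-K1 of the class stood at 188, 147 and 89.6 CPM, and its QS/PF ratio moved from 0.759 to 0.476 (0.437 to 0.518) and passed the size rule. B2m then had a QS/PF ratio of 0.666 (0.612 to 0.726), and Tapbp (0.680) and Psmb8 (0.737) no longer passed, leaving 5 of 9 genes called lower. The QS/HS medians of the larger clusters were not alike. In cluster 8, led by Ptgds and Opalin, the median QS/HS log2 ratio was -0.71 over 7 measured genes, whereas in cluster 12, led by Klk6, Anln and Hapln2, it was 0.07 over 6. The share of thinned oligodendrocyte-like cells with at least 1 UMI of the 10 genes was 63.5% in PF (60.3% to 66.6%), 48.7% in HS (45.2% to 52.1%) and 44.8% in QS (42.0% to 47.7%). In neuron-like cells, the class with the lowest mean H2-K1, thinned to the same number of UMIs, the shares were 48.9% (34.1% to 63.9%), 47.4% (31.0% to 64.2%) and 32.1% (20.3% to 46.0%). The oligodendrocyte-like shares lay within these intervals in all 3 libraries, so no difference is read from them, and the astrocyte-like share lay above them in PF and QS. These intervals are wide, from 47, 38 and 56 thinned neuron-like cells, and do not cover the spread between mice. Median depths before thinning were from 11576 to 13587.5 UMIs in neuron-like cells, from 7050 to 8031.5 UMIs in oligodendrocyte-like cells and from 3420 to 3790 UMIs in astrocyte-like cells.

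Ependymal-like cells, which bear cilia and line the ventricles, were low in HS, and by the class median closer to PF in QS (-0.13 in QS/PF). H2-K1 stood at 311 CPM in PF, 217 CPM in HS and 264 CPM in QS, with ratios of 0.699 (0.666 to 0.733) in HS/PF, 0.851 (0.810 to 0.893) in QS/PF and 1.22 (1.16 to 1.28) in QS/HS. Tap2 stood at 46.5, 36.9 and 51.2 CPM, with a QS/HS ratio of 1.39 (1.23 to 1.56). All 10 genes were below 1 in HS/PF, and in QS/HS 1 of 10, Psmb10, was below 1, with a class median of 0.23, the highest of the 9. The 2 clusters of the class gave QS/HS medians of 0.25 (cluster 7) and 0.04 (cluster 16, 4 of 9 genes below 1). With cells gated on marker UMIs, 7 of 10 genes were below 1 in HS/PF (median -0.14 in place of -0.33). No ratio of the 10 genes reached the size rule in this class.

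The mural classes had few UMIs of most members. In pericyte-like cells, which wrap capillaries, H2-K1 stood at 303 CPM in PF, 249 CPM in HS and 202 CPM in QS, with a QS/PF ratio of 0.667 (0.587 to 0.758). Psmb8 stood at 33.8, 21.5 and 21.0 CPM there, with ratios of 0.634 (0.426 to 0.934) in HS/PF and 0.620 (0.410 to 0.924) in QS/PF. Nlrc5 had 14, 18 and 3 UMIs in pericyte-like cells, too few to be measured. In vascular smooth muscle-like cells H2-K1 stood at 283, 214 and 203 CPM and Psmb9 at 15.6, 9.84 and 9.33 CPM, with an HS/PF ratio for Psmb9 of 0.631 (0.432 to 0.912).

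Tanycyte-like cells, the elongated cells that line the floor of the ventricle, were the 1 class whose HS/PF median (0.07) was above 0. Tap1 stood at 38.0 CPM in PF, 72.4 CPM in HS and 42.7 CPM in QS, with ratios of 1.91 (1.46 to 2.52) in HS/PF and 0.590 (0.477 to 0.724) in QS/HS. Nlrc5 stood at 23.6, 47.6 and 30.5 CPM, with an HS/PF ratio of 2.02 (1.44 to 2.88). HS was thus the high library for both. B2m, at 333, 334 and 312 CPM, and Psmb8, at 105, 118 and 97.3 CPM, had HS/PF intervals that included 1, and the HS/PF ratio of H2-K1 was 0.887 (0.824 to 0.955).

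The class held 190, 522 and 347 cells (PF, HS, QS), in clusters 15 and 24, and cluster 24 (37, 142 and 68 cells) was too small in PF to be compared. Without cluster 24 the HS/PF median was -0.02, with 5 of 10 genes below 1, so the median above 0 depends on including that cluster. Within cluster 24, Tap1, Psmb8 and Nlrc5 were higher in HS than in PF. The other members were lower there, with H2-K1 at 808, 618 and 553 CPM. Cluster 24 had more CPM of each member than cluster 15 in every library, and gave 37 of 190 cells in PF and 142 of 522 in HS. The part of these cell numbers in the class values was not tested. Psmb9, called lower in QS for the whole class at 62.7, 73.8 and 39.6 CPM (QS/PF 0.632, 0.483 to 0.828), had a QS/PF ratio of 1.04 without cluster 24, and that call was lost. Within cluster 15 alone, Tap1 stood at 16.8 CPM in PF, 33.4 CPM in HS and 20.7 CPM in QS (HS/PF 1.99, 1.18 to 3.53), and Nlrc5 at 10.3, 26.4 and 17.6 CPM (HS/PF 2.58, 1.35 to 5.42). Irf1, the interferon-induced factor that acts on class I promoters, stood at 189, 358 and 352 CPM in tanycyte-like cells, with ratios of 1.89 (1.68 to 2.13) in HS/PF and 1.86 (1.64 to 2.11) in QS/PF. In endothelial-like cells the HS/PF ratio of Irf1 was 0.806 (0.784 to 0.829).

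The HS/PF ratios of Nlrc5 in other classes lay on both sides of 1. In oligodendrocyte-like cells it stood at 3.43 CPM in PF, 6.20 CPM in HS and 2.03 CPM in QS, from 27, 49 and 26 UMIs, an HS/PF ratio of 1.81 (1.11 to 3.01). In astrocyte-like cells it stood at 9.76, 12.9 and 12.1 CPM, with an HS/PF interval from 0.897 to 1.98. In microglia-like cells it stood at 25.2, 24.6 and 20.1 CPM, with an HS/PF ratio of 0.974 (0.825 to 1.15). In ependymal-like cells the ratio was 0.794 (0.620 to 1.02) and in vascular smooth muscle-like cells 0.897 (0.722 to 1.11), within the range of the other genes there. Over the 8 classes in which it was measured, its median HS/PF log2 ratio was -0.04, and over 7 classes its median QS/PF log2 ratio was -0.26.

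By gene, H2-K1 and H2-D1 were below 1 in all 9 classes in both HS/PF and QS/PF. Their median log2 ratios were -0.28 and -0.21 in HS/PF and -0.40 and -0.14 in QS/PF. Psmb8 had the lowest median of the 10 genes in HS/PF, -0.43, and Psmb9 in QS/PF, -0.66, where it was called lower in 5 of 9 classes, tanycyte-like cells included. Psmb8 was called lower in 4 of 9 classes in QS/PF. The immunoproteasome subunits gave 10 of the 17 pairs called lower in QS/PF, where 4.56% of all gene-class pairs were lower.

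The other genes of the pathway were read from lists written with the marker lists. Of the 14 other class I heavy chains and chains that bind B2m, 76 pairs were measured in HS/PF, of which 8 were called lower and 0 higher, with a median of -0.28. In QS/PF 13 of 75 were lower and 2 higher, with a median of -0.12. Of all gene-class pairs, 3.17% were lower and 2.62% higher in HS/PF, and 4.56% were lower and 2.62% higher in QS/PF. H2-Q7, a non-classical heavy chain of the Qa-2 family, was called lower in QS/PF in 7 of 9 classes, and in endothelial-like cells it stood at 252 CPM in PF, 177 CPM in HS and 154 CPM in QS. H2-T22, a non-classical chain seen by some gamma delta T cells, had medians of -0.33 in HS/PF and -0.32 in QS/PF.

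The general partners of the pathway lay near the median of all genes. Peptide trimming and loading partners, which include the chaperone Calr, gave 2 lower and 1 higher of 76 pairs in HS/PF (median -0.02). They gave 1 lower of 77 in QS/PF (median -0.07), with class medians from -0.26 in border-associated macrophage-like cells to 0.14 in pericyte-like cells. Beside these and the next counts, 3.17% of all gene-class pairs were lower and 2.62% higher in HS/PF, and 4.56% were lower in QS/PF. Erap1, the aminopeptidase that trims class I peptides in the endoplasmic reticulum, had medians of -0.18 and -0.27. Constitutive catalytic subunits and proteasome activators gave 0 called of 80 pairs in HS/PF (median -0.12) and 3 lower of 80 in QS/PF (median -0.05). Of these pairs, 59 lay below 1 in HS/PF and 48 in QS/PF. In astrocyte-like cells all 9 genes of this list were below 1 in both comparisons (medians -0.23 and -0.36). In ependymal-like cells 0 of 9 were below 1 in QS/PF (median 0.11). In that list the lowest in HS/PF were Psme2 and Psme1, the subunits of the interferon-inducible PA28 activator, with medians of -0.36 and -0.25, whereas Psmb5, a constitutive catalytic subunit, had -0.12. Psme2 in endothelial-like cells stood at 238, 167 and 193 CPM, an HS/PF ratio of 0.705 (0.678 to 0.732).

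The interferon gamma pathway and class I transcription factors gave 4 lower and 3 higher of 158 pairs in HS/PF (median -0.04) and 10 lower and 3 higher of 157 in QS/PF (median -0.06), beside 3.17% lower and 2.62% higher, and 4.56% lower and 2.62% higher, of all pairs. Irf1 had a median of -0.31 in HS/PF. Interferon-stimulated genes gave 17 lower and 8 higher of 144 pairs in HS/PF (median -0.24) and 39 lower and 16 higher of 142 in QS/PF (median -0.36). Of the higher pairs, 6 of 8 in HS/PF were in tanycyte-like cells (median 0.37, 0 lower), and 8 of 16 in QS/PF were in ependymal-like cells (median 0.64, 1 lower). Ifit3, for example, stood at 140, 328 and 238 CPM in tanycyte-like cells and at 42.3, 35.2 and 135 CPM in ependymal-like cells. Ifi27l2a was called lower in QS/PF in 8 of 9 classes (median -1.30), whereas Rsad2, an antiviral enzyme, was called higher in 4 and lower in 1 of 7 (median 0.63). Receptors and ligands of CD8 T cells and natural killer cells gave 3 measured pairs in each comparison, with 0 called in HS/PF or QS/PF and 1 lower in QS/HS.

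**Figure D5:**
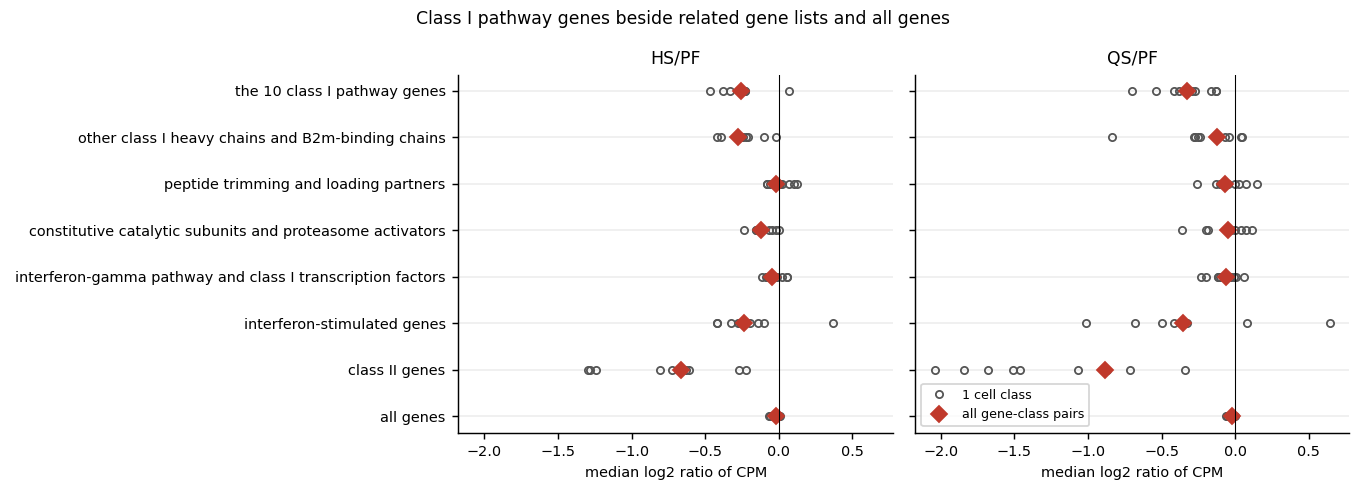
Median log2 ratio of CPM for the 10 genes, 6 related lists and all genes, in HS/PF and QS/PF, with 1 open circle for each class with at least 3 measured genes and a red diamond for all gene-class pairs. The diamonds of the 10 genes are at -0.26 and -0.33, those of class II genes at -0.67 and -0.89, and those of all genes at -0.02 in both.

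Marker RNA of other cell types also differed between libraries, and not all of it was highest in PF. Class II genes mark professional antigen-presenting cells. They were called lower in 28 of 50 pairs in HS/PF (median -0.67) and 36 of 48 in QS/PF (median -0.89). Of all gene-class pairs, 3.17% were lower in HS/PF and 4.56% in QS/PF. Summed over 7 genes they stood at 89.0, 47.6 and 36.8 CPM in astrocyte-like cells, 77.9, 33.6 and 36.9 CPM in oligodendrocyte-like cells and 113, 102 and 29.8 CPM in endothelial-like cells, with all 7 detected in each of these sums. The 8 markers of border-associated macrophages summed to between 5.78 and 18.1 CPM in the astrocyte-like and oligodendrocyte-like classes, with at most 2 of the 8 at 0, the 9 markers of monocytes or dendritic cells to between 2.42 and 9.20 CPM, with 1 to 4 of the 9 at 0, and both sums were lowest in QS. Markers of red blood cells summed to 1706, 1561 and 5307 CPM in endothelial-like cells and to 1218, 58.0 and 162 CPM in astrocyte-like cells. The 9 microglia markers summed to 2032, 1994 and 2178 CPM in endothelial-like cells and 1605, 1742 and 1469 CPM in astrocyte-like cells. In oligodendrocyte-like cells they summed to 350, 308 and 277 CPM. Markers of the pituitary or pars tuberalis were highest in HS in all 9 classes, for example 52.7, 129 and 37.2 CPM in endothelial-like cells. Their part in the class I results was not tested.

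As a measure of free RNA, 5% of the whole-library level was 81.4, 57.8 and 53.8 CPM for H2-K1 and 60.1, 44.8 and 42.9 CPM for B2m. These levels are a small part of the endothelial-like and microglia-like values, but B2m was at 98.9 CPM in oligodendrocyte-like cells of QS. In that class and library Tap1, Tap2 and Psmb9 stood at 2.58, 3.44 and 3.60 CPM. Their 5% levels in QS were 2.55, 4.13 and 3.85 CPM, so these genes lay near or below the measure of free RNA. When 5% was subtracted from every class, the class medians of HS/PF were -0.47 in endothelial-like, -0.25 in microglia-like, -0.34 for astrocyte-like and -0.14 for oligodendrocyte-like cells. Those of QS/PF were -0.38, -0.14, -0.53 and -0.83 in the same order. In ependymal-like cells the QS/PF median became 0.05.

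The genes most like the 10 were ranked over 27 points, 9 classes in 3 libraries, after the mean of each class was taken out. The measure was Pearson's r with the mean of the 7 members that had at least 30 UMIs in every point, over 4422 genes, and it is a description, since the points share libraries and depth. Among the 10 highest were Psme1 (r = 0.88), Lgals9 (0.85), H2-T22 (0.85), Rgs10 (0.84), Psme2 (0.83), Ifitm3 (0.83), Efhd2 (0.81), Fcer1g (0.81) and C1qc (0.80). Psme1, Psme2 and H2-T22 belong to the antigen presentation pathway. Fcer1g and C1qc are genes of microglia and macrophages. C1qc stood at 3753, 3440 and 3344 CPM in microglia-like cells, and at 108, 75.7 and 65.0 CPM in astrocyte-like cells. In oligodendrocyte-like cells it stood at 78.3, 57.8 and 40.9 CPM. In both, the order of the libraries was that of B2m. The part of such transcripts in the class I values of these classes was not tested.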

How the data were processed

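Single-cell RNA was measured in 3 libraries, 1 each for PF, HS and QS (10x Genomics 3' kit, per the labels). The deposited files hold UMI counts per gene and barcode, which the authors obtained from Cell Ranger and mm10. The version is 7.0.1 per the file headers, whereas the submitters' processing notes list 5.0.0, beside Seurat 3.1.2. Intron counting: not given in the sources used here.

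Barcodes were kept with at least 500 UMIs, 200 genes and at most 20% mitochondrial UMIs, and 784, 672 and 727 doublets called by Scrublet in Scanpy 1.11.5 were removed. Clusters came from 2000 variable genes (the members, the genes of the lists and other H2- genes left out), 30 components, 15 neighbours and Leiden resolution 1 (leidenalg 0.10.2), which gave 36 clusters, 5 of them unnamed. A name needed 3 markers in at least 25% of cells at 4 times the median cluster. The runner-up score had to be at most 60% of the best, or 2 own markers and none of another class had to be among the 10 leading genes. In either case no other class could have more markers than the best among those 10, and a cluster of low UMIs needed an own marker there. The route by leading genes was added after pericyte, smooth muscle and tanycyte clusters had stayed unnamed. The members and lists were chosen with earlier results of these data known. All 10 members are named. From each list at most 4 genes with the largest absolute median log2 ratio per comparison could be named, and the 10 genes of highest r among those with a mean of at least 50 CPM, predicted genes (Gm, Rik) left out. Genes leading clusters are named only to describe them. Some results for genes that this rule names are not reported here.

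Counts were summed per class and library. The code for ratios and intervals was checked on simulated counts. Other software was Python 3.11.15, NumPy 2.4.6, SciPy 1.17.1, pandas 2.3.3, AnnData 0.12.19 and matplotlib 3.10.9.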

Additional observations from a re-analysis of the deposited data

How the results depend on the processing

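With 1 library a group, no library could be left out and the spread between mice is unknown. No paired analysis was possible because each group has 1 library and the labels give no replicate numbers. The median log2 ratio over pairs lay between -0.31 and -0.22 in HS/PF and between -0.37 and -0.28 in QS/PF under 10 alternatives, and no called pair changed direction under these. Leaving out clusters of under 100 cells in a library, an alternative chosen after seeing the data, gave medians of -0.26 and -0.31, a QS/HS median of 0.014 and 1 higher pair in QS/PF, and turned Psmb9 in tanycyte-like cells from lower to a log2 ratio of 0.051 in QS/PF. The QS/HS median, -0.02, became 0.022 with doublets kept, where 1 pair was higher, and 0.0042 with classes of at least 200 cells, where 6 pairs were lower in QS/HS and 1 was higher in HS/PF. Gating cells on marker UMIs, with 7 classes, left 3 pairs lower in HS/PF. The cause of these changes was not tested. The smaller size, a log2 ratio of 0.32, gave 34 lower pairs in HS/PF, 45 lower and 1 higher in QS/PF, and 21 lower and 3 higher in QS/HS, by its construction. With doublets kept, the astrocyte-like HS/PF median was -0.70 in place of -0.38. Subtracting 5% free RNA kept the direction of 83 of 88 pairs in HS/PF, 84 of 86 in QS/PF and 80 of 81 in QS/HS. Another scaling moved log2 ratios by at most 0.045. Counts limit Nlrc5 most, since 2 of its 9 class ratios in QS/PF had fewer than 30 UMIs.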
